A study of Mus musculus with 17 samples.

Results

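RNA was compared between common myeloid progenitors labelled Lin28b knockout and wild-type progenitors of the mouse fetal liver. These 6 libraries were chosen by their labels from the 17 of a series on Lin28b and let-7 in developing myeloid cells. Common myeloid progenitors (CMPs) are bone marrow or fetal liver cells that give rise to granulocytes, monocytes, red cells and platelets. They were isolated by fluorescence-activated sorting. The 3 labelled knockout libraries carry the numbers 3, 6 and 8, and the 3 wild-type libraries the numbers 1, 4 and 5. All values per library are given below in that order. All libraries described here have the strain C57BL/6J. Wild-type CMPs of adult bone marrow (n = 3) and a single library of inducible let-7 fetal liver CMPs (n = 1, no replicate) serve only as side values. A treatment text on induction of Lin28b with doxycycline is attached to all 17 samples, and the labels do not say which samples received the drug. No source used here gives the age of the fetuses, the knockout allele or the antibodies of the sort. Whether each library stems from an animal of its own is not stated. The p-values therefore measure only the spread between libraries, which may be technical in part. That spread was estimated within the groups of all 17 libraries, not within the 6 compared here alone. Sex-linked genes, given below, differed between libraries within both groups.

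LIN28B is an RNA-binding protein of embryonic and fetal cells. It binds precursors of the let-7 microRNAs and keeps them from maturing, and mature let-7 in turn lowers messages with a match to its seed in the 3′ untranslated region (3′ UTR), such as Lin28a, Lin28b, Hmga2 and the Igf2bp genes. In the fetal liver, red cell production dominates. Erythroid precursors mature there around macrophages, under the transcription factors GATA1, TAL1 and KLF1 and the hormone erythropoietin, while they build heme, import iron and assemble a spectrin-based membrane skeleton.

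The counts per library were 22811722, 19527870 and 22762947 in the labelled knockout group and 21771484, 19226716 and 17899593 in the wild-type fetal liver group. They are reads per RefSeq transcript, summed here over the transcripts of each of 24416 genes. Levels are CPM, the read count relative to a library of fixed size, after scaling by trimmed mean of M values (TMM). A gene was called where the quasi-likelihood test of edgeR gave a Benjamini-Hochberg adjusted p under 0.05, and a difference is the log2 level in the labelled knockout minus that in the wild type, with its standard error.

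Lin28b itself, the gene named in the label (chr10:45376617-45486314, GRCm38.p6), was at 112, 88.9 and 111 CPM in the labelled knockout libraries and at 89.3, 99.6 and 124 CPM in the wild-type libraries. The groups overlapped, and the difference was -0.00 ± 0.27 on the log2 scale (adjusted p = 1, edgeR). The counts go against the label as far as the whole transcript shows. Reads were counted over the whole transcript, so a loss of single exons would not be visible, and the targeted part of the gene is not stated. Adult bone marrow CMPs held 0.359 ± 0.351 CPM of Lin28b (SD, n = 3). The group is therefore called the labelled Lin28b knockout throughout, and each direction below is that of the libraries with this label.

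Of 13558 genes tested, 5941 were called (43.8%). Of these, 2823 were higher (20.8%) and 3118 were lower (23.0%) in the labelled knockout, and 3190 differed at least 2-fold (23.5%). The 2-fold differences comprised 1807 higher and 1383 lower genes. Differences of at least 8-fold were mostly rises, with 902 genes higher and 141 lower. Of 4157 genes with a mean of at least 50 CPM, 799 lay within 1.1-fold. The median log2 difference over all tested genes was 0, and the counts of each gene list below are to be read against these shares. Scaling by DESeq2 size factors left 5852 calls, of which 52.7% in place of 47.5% were rises.

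**Figure D1:**
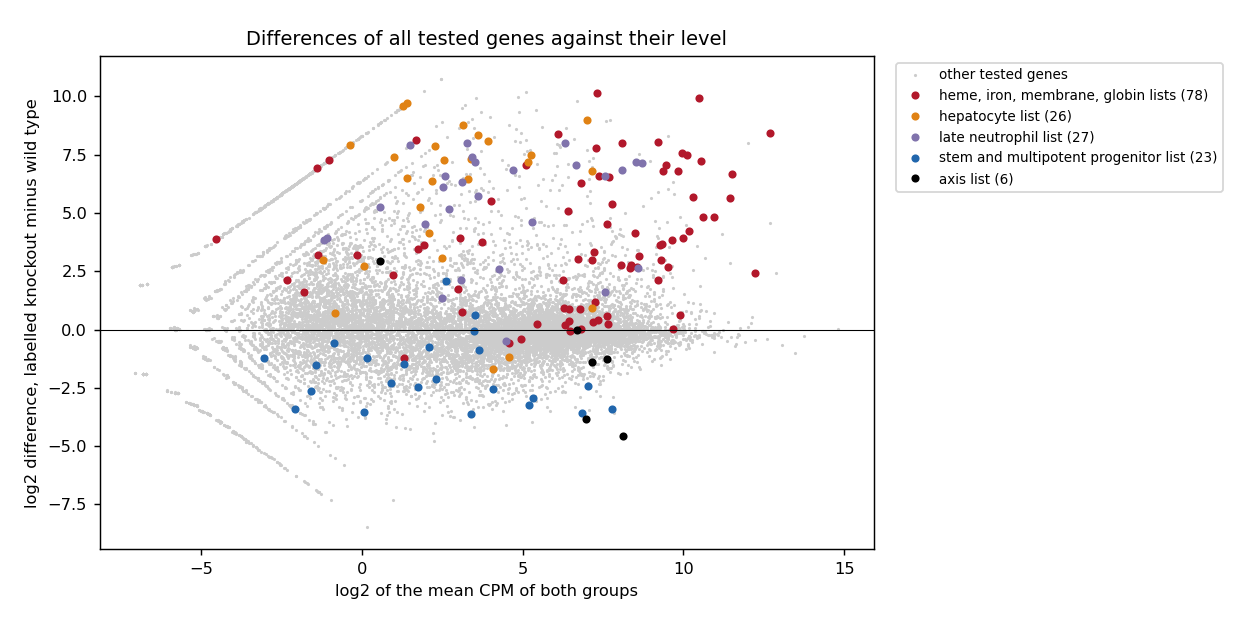
Log2 difference between the labelled Lin28b knockout and wild-type fetal liver (vertical axis) against the log2 of the mean CPM of both groups (horizontal axis), with 1 point per tested gene and 5 sets of listed genes in colour. The heme, iron, membrane and globin genes lie mostly above 0 at high levels, up to 10.13 for Hba-x. Most of the stem and multipotent progenitor genes lie below 0. So do the 4 of 6 axis genes that were called lower, and Lin28b lies at -0.004. Straight lines of points at the left edge are genes with 0 or few counts in a group.

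Genes of the red cell programme were higher in the labelled knockout in every one of 6 erythroid lists, which cover regulators, heme synthesis, iron handling, membrane, enzymes with remodelling, and globins. The 161 listed genes took 11.7%, 11.02% and 11.9% of all gene counts in libraries 3, 6 and 8. They took 1.39%, 1.30% and 1.30% in the wild-type fetal liver libraries, between 1.52% and 1.66% in the bone marrow libraries and 1.52% in the inducible let-7 library. In bulk samples such as these, fewer cells of a type and less RNA per cell cannot be told apart, and the same holds for more.

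**Figure D2:**
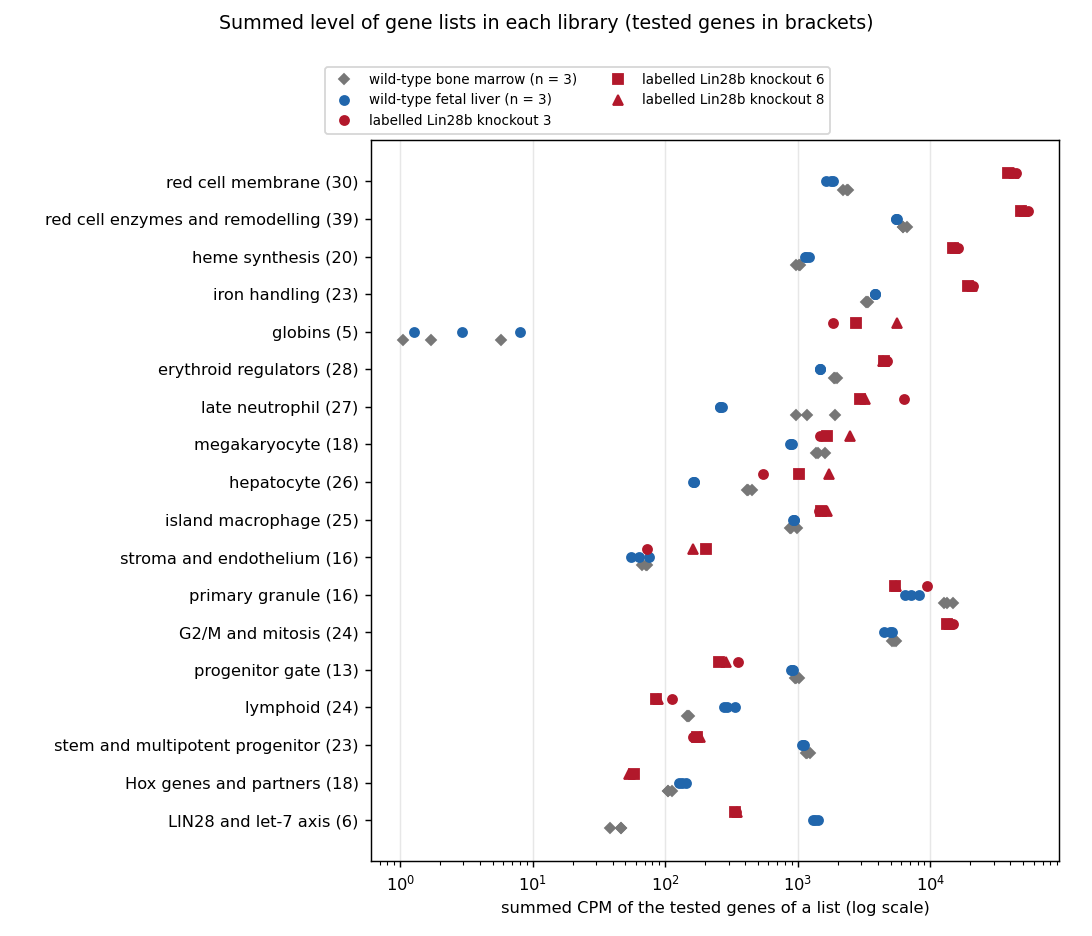
Summed CPM of the tested genes of 18 lists (horizontal axis, log scale) in each library of the labelled Lin28b knockout (red, 1 symbol per library), wild-type fetal liver (blue) and wild-type adult bone marrow (grey). The red cell membrane list sat between 38406 and 43957 CPM in the labelled knockout and between 1622 and 1847 CPM in wild-type fetal liver, and the stem and multipotent progenitor list had the opposite order.

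Among erythroid regulators, 16 of 28 tested members rose, 3 fell and 9 were not called, with a median difference of 1.74. Gata1, the factor that directs red cell and platelet fate, was at 483, 499.5 and 466 CPM against 105, 104 and 111 CPM (log2 difference 2.18 ± 0.16, adjusted p = 3.00e-08, edgeR). Klf1, which activates most late red cell genes, was at 1166, 1124 and 1069.9 CPM against 82.7, 68.8 and 66.9 CPM, a 15.4-fold difference (adjusted p = 4.99e-08). Every labelled knockout library exceeded every wild-type library for both genes. Epor, the erythropoietin receptor, was at 467, 454 and 437 CPM against 37, 28.7 and 23.6 CPM, 15.2-fold higher (adjusted p = 5.05e-08). The GATA1 partner Zfpm1 rose 3.47-fold, Tal1 rose 5.46-fold, and the leucine zipper partners Mafk, Mafg and Nfe2 rose 3.35-, 5.7- and 3.71-fold. Foxo3, which guards maturing red cells against oxidants, rose 12.9-fold, the late erythroid regulator E2f2 rose 27.8-fold and Klf3, a repressor downstream of KLF1, rose 8.95-fold. Tal1, Nfe2 and E2f2 have more than 1 transcript, so that reads shared between transcripts are missing from their counts.

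The 3 regulators that fell act before or beside red cell commitment. Gata2, the progenitor GATA factor that GATA1 replaces, was at 37.6, 39.8 and 47.4 CPM against 208, 229 and 227 CPM (log2 difference -2.41 ± 0.16, adjusted p = 9.95e-09, edgeR). Spi1, which encodes the myeloid factor PU.1, was at 133, 95.7 and 90.5 CPM against 228, 248 and 254 CPM (log2 difference -1.19 ± 0.12, adjusted p = 7.61e-07). The groups did not overlap for either gene. Myb, a proliferation factor of immature progenitors, fell by 1.1 on the log2 scale at low counts (adjusted p = 0.00282). Bcl11a, which silences fetal globins, was at 71.5 ± 6.81 against 87.5 ± 10.3 CPM (SD, n = 3) and was not called (adjusted p = 0.0764), and neither were Lyl1, Nr3c1 and Cited2. Bcl11a was called lower without wild-type library 5, and Lyl1 was called higher with only the 6 fetal liver libraries. Nr3c1 was called higher in several alternatives, among them DESeq2, its size factors and the stricter filter on low counts.

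The promoters of these genes can be set beside their rise, since several members moved together. RefSeq promoter windows (250 bases before to 50 after the start, GRCm38.p6) were searched on both strands for the letters AGATAA, the core that GATA factors read, and CACCC, the core that Krüppel-like factors read. The AGATAA letters were in a window of 8.45% of 10523 tested genes with a promoter entry, of 15.8% of genes that rose at least 8-fold, and of 27.3% of the red cell membrane list (6 of 22 genes). The share was 26.7% for the list of red cell enzymes and remodelling, 22.7% for erythroid regulators, 17.6% for iron handling and 12.5% for heme synthesis (2 of 16). Lists of other cell types were in the same range, with 24% for late neutrophil genes (6 of 25) and 14.3% for hepatocyte genes. For CACCC the shares were 65.2% of tested genes, 69.0% of those that rose at least 8-fold, 90.9% of the membrane list, 85.7% of the hepatocyte list and 56.0% of the late neutrophil list. These are descriptions of letters, with no test. The 250 bases before the start of 4 called genes that hold both are shown 5′ to 3′ on the gene's strand, with matches on either strand in capitals (AGATAA, whose reverse complement is TTATCT, and CACCC, whose reverse complement is GGGTG). They are Rhd and Kel, which encode blood group antigens, Icam4, an adhesion molecule of erythroid cells, and Epor, at chr4:134864286-134864535 (+), chr6:41704326-41704575 (-), chr9:21029182-21029431 (+) and chr9:21963577-21963826 (-).
Rhd: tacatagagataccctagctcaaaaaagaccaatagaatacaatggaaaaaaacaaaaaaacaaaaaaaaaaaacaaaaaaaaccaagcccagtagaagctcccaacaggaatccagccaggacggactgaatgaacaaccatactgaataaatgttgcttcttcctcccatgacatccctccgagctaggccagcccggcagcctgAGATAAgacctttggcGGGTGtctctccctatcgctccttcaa
Kel: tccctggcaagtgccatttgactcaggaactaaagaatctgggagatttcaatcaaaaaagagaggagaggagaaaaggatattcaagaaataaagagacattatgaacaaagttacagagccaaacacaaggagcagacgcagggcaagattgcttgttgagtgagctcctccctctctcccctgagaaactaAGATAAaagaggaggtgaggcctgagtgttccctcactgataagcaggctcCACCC
Icam4: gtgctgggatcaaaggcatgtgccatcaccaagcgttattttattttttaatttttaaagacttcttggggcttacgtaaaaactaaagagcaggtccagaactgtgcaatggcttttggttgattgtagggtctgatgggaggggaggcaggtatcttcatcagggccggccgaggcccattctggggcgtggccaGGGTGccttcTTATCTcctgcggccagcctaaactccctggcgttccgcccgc
Epor: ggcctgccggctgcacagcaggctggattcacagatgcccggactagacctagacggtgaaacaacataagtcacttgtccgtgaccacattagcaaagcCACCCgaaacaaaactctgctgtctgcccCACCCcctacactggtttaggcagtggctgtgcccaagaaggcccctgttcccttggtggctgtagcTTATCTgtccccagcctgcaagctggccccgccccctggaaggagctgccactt
Of these, Epor held 2 CACCC matches and the others 1 each, and all 4 held 1 AGATAA match. Icam4 was at 373, 385 and 389 CPM against 17.6, 15.8 and 16 CPM, 23.2-fold higher (adjusted p = 9.16e-13, edgeR).

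Heme synthesis rose along nearly the whole pathway. Of 20 tested members, 16 rose, none fell and 4 were not called, and the median difference was 3.74 on the log2 scale (3.54 with genes at 0 in a group set to their bound). The summed level was 16039, 14805 and 15188 CPM in the labelled knockout libraries against 1211, 1156 and 1128 CPM in the wild-type libraries. Slc6a9, which imports the glycine that starts heme synthesis, was at 346, 322 and 324 CPM against 4.99, 2.64 and 2.64 CPM, 95.2-fold higher (adjusted p = 1.44e-07, edgeR). Slc25a38, the mitochondrial glycine carrier, rose 10.2-fold. The pathway enzymes followed. Urod was at 1213, 1112 and 1117 CPM against 95.7, 93 and 89.6 CPM, and Cpox at 3061, 3042 and 2945 CPM against 134, 96.2 and 88.6 CPM. These are 12.4- and 28.4-fold differences (adjusted p = 6.47e-14 and 1.44e-08). Ppox rose 17.9-fold. Fech, the ferrochelatase that inserts iron into the ring, was at 5886, 5049 and 5350.2 CPM against 126, 102 and 92.7 CPM, 50.8-fold higher (adjusted p = 7.29e-13).

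The porphyrin carriers Abcb10, Abcb6 and Tmem14c rose 14.5-, 7.9- and 4.41-fold, and Eif2ak1, the heme-regulated kinase that couples globin translation to heme, rose 8.03-fold. Of the genes that break heme down, Hmox1, Blvrb and Blvra rose and Hmox2, near 0 counts, was not called (adjusted p = 0.16, edgeR). Hmox1, the inducible heme oxygenase, was at 145, 168 and 187 CPM against 3.0, 5.6 and 6.08 CPM (34.2-fold, adjusted p = 1.27e-08), and the biliverdin reductases Blvrb and Blvra rose 45.4- and 1.85-fold. Hmox1 is also on the list of macrophage genes, of which 21 of 25 rose, and their part in its rise was not tested. By contrast the heme exporter Flvcr1 was at 46.9 ± 2.77 against 39.6 ± 0.555 CPM (SD, n = 3) and was not called (adjusted p = 0.162, edgeR). Alas2, the first and erythroid-specific enzyme, had 54 counts over the labelled knockout libraries and 0 over the wild-type libraries. With 3 counts set as the limit for the wild-type group, the level was at least 18.7-fold higher. It has 2 transcripts and its level is uncertain for that reason, and DESeq2 did not call it (adjusted p = 0.107).

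**Figure D3:**
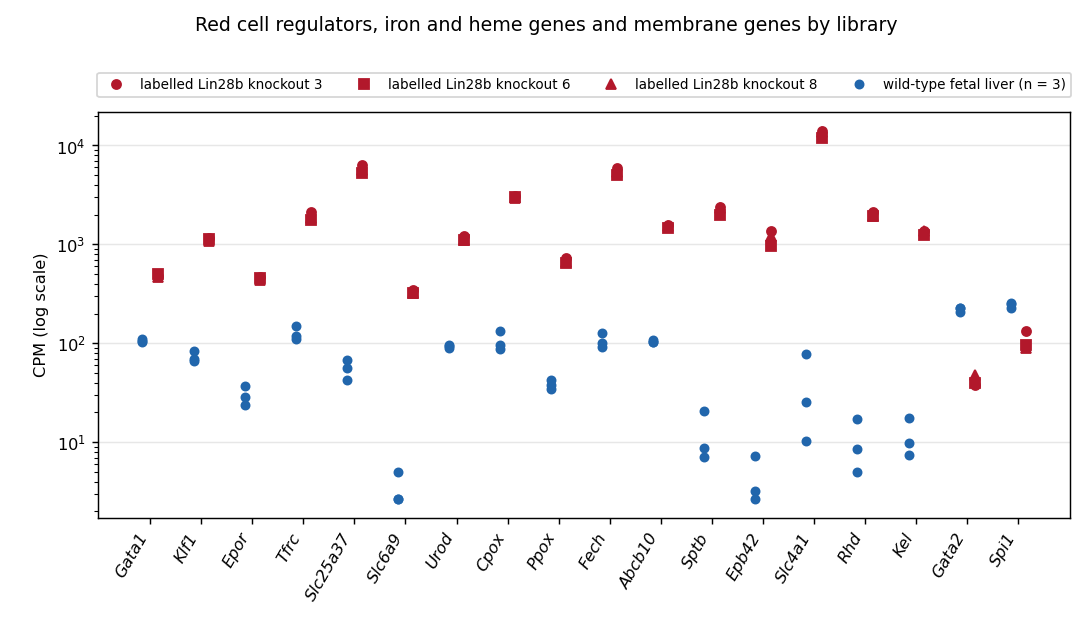
CPM (vertical axis, log scale) of 18 genes in the 3 labelled Lin28b knockout libraries (red, 1 symbol per library) and the 3 wild-type fetal liver libraries (blue). The regulators, iron, heme and membrane genes from Gata1 to Kel are higher in all 3 red libraries, and Gata2 and Spi1 are lower.

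Most genes of the iron list rose, those of import among them. Of 23 tested members of the iron list, 16 rose, 2 fell and 5 were not called (median difference 0.88). Tfrc, the transferrin receptor, was at 2111, 1769 and 1857 CPM against 149, 119.5 and 111 CPM (15.1-fold, adjusted p = 1.22e-09, edgeR). Slc25a37, the mitochondrial importer mitoferrin 1, was at 6276, 5308 and 5697 CPM against 68.4, 56.2 and 42.6 CPM (103-fold, adjusted p = 1.25e-11). Its paralogue of other tissues, Slc25a28, was at 24.5, 26.9 and 27.6 CPM against 32.3, 37.4 and 35.9 CPM (adjusted p = 0.0251, edgeR). This call was lost without labelled knockout library 3 or 6 or without wild-type library 4 or 5. It was also lost in edgeR with DESeq2 size factors (adjusted p = 0.0613) and with no filter on low counts (0.0691). Slc11a2, which moves iron out of endosomes, rose 4.42-fold. The iron-sulfur assembly genes Glrx5 and Isca1 rose 6.46- and 6.87-fold, and the ferritin light chain Ftl1 rose 5.36-fold. Slc40a1, the iron exporter of macrophages and red cells, was 42.2-fold higher. Erfe, the hormone by which erythroblasts lower hepcidin, was at 25.9, 26.3 and 22.3 CPM against 1.59, 1.83 and 2.12 CPM (13.4-fold, adjusted p = 1.28e-05). The iron regulatory proteins Ireb2 and Aco1 were within 1.05-fold and not called, and Fbxl5, which degrades IREB2, fell by 0.57 on the log2 scale. Hfe, which takes part in iron sensing in hepatocytes, rose 1.68-fold (adjusted p = 0.0023).

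Membrane and skeleton genes rose in nearly every case. Of 30 tested members, 28 rose and none fell, with a median difference of 4.39. Slc4a1, the band 3 anion exchanger, was at 14085, 11866 and 13633 CPM against 77.9, 25.3 and 10.3 CPM, 346-fold higher (log2 difference 8.43 ± 0.71, adjusted p = 1.22e-07, edgeR). The wild-type libraries differed among themselves by several fold for this gene, and all were far below the labelled knockout. Sptb, a spectrin chain, was at 2369.8, 1961 and 2307 CPM against 20.5, 8.83 and 7.05 CPM (179.9-fold, adjusted p = 5.50e-08). Epb42 rose 263-fold, Tmod1, which caps actin, rose 78.8-fold, and Epb41 rose 12.5-fold with few counts.

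The blood group genes rose together with them. Rhag and Rhd, which form the Rhesus complex, rose 132- and 191-fold, Kel rose 112-fold and its partner Xk 6.88-fold. Ermap, Cldn13, Tspo2 and Tlcd4 rose 51.1-, 254-, 94- and 223-fold. Slc2a1, a glucose transporter, was at 2193, 1996 and 2339 CPM against 112, 120.2 and 113 CPM (18.9-fold, adjusted p = 4.12e-10). Cd24a, present on early erythroid and other immature cells, rose 28.6-fold. The rise was smallest for Cd47, the signal that protects cells from macrophages, at 1.56-fold. Bcam and Dmtn were not called, although without labelled knockout library 6 Bcam was called lower and without wild-type library 4 Dmtn was called higher (adjusted p = 0.0225). Ank1, Cd36, Add2 and Tspan33 have several transcripts and too few counts for the test.

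Enzymes and genes of red cell remodelling had 38 of 39 tested members higher, none lower, and a median difference of 3.17. Car2, a carbonic anhydrase, was at 13813, 12241 and 12208 CPM against 604, 484 and 509 CPM (24-fold, adjusted p = 1.11e-08, edgeR). Gpx1, a peroxidase, rose 5.34-fold. Bpgm, which makes bisphosphoglycerate and thereby tunes oxygen release, was at 1032, 894 and 1053 CPM against 18.8, 21.8 and 18.6 CPM (50.3-fold, adjusted p = 4.97e-14). Trim10, a ubiquitin ligase of erythroid cells, was at 1537, 1333 and 1543 CPM against 8.67, 3.02 and 1.83 CPM (316-fold, adjusted p = 2.20e-09). Ube2l6, Tent5c, Nxpe2 and Samd11 rose 80.8-, 149-, 187- and 193-fold. Car1, with 2 transcripts, had 4 counts against 7 and was not called.

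The embryonic globins and theta globins were nearly limited to the labelled knockout, while the adult globins could not be read. Hbb-y, the embryonic epsilon-type chain, was at 1453, 2293 and 4841 CPM in the labelled knockout and 2.0, 6.14 and 0.516 CPM in wild type (log2 difference 9.95 ± 0.96, adjusted p = 5.68e-07, edgeR). Hba-x, the zeta chain, was at 176, 268 and 510.2 CPM against 0, 0.861 and 0 CPM (log2 difference 10.13 ± 1.13, adjusted p = 2.77e-06). Library 8 was highest for both and library 3 lowest. Hbb-bh1, which marks primitive and early definitive red cells, was at 54.3, 71.5 and 79.8 CPM against 0.272, 0.808 and 0.459 CPM (134-fold). Hbq1b, a theta globin, was steadier at 150.3, 127 and 136 CPM against 0.635, 0.269 and 0.287 CPM (332-fold, adjusted p = 9.89e-11), and its near copy Hbq1a had 364 counts against 1, a ratio of 379 (95% counting interval 67.6 to 15007). Hba-a1, Hbb-bt, Hbb-b1 and Hbb-b2 had 0 counts in all 17 libraries, and Hba-a2 and Hbb-bs had 4 and 1 counts in the labelled knockout. Near-identical copies share reads, which this counting sets aside, so these zeros do not measure the adult globins.

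The genes closest to the label, the LIN28 and let-7 axis, were called lower in 4 of 6 cases. Their summed level was 343, 334 and 350.1 CPM in the labelled knockout against 1354, 1303 and 1424 CPM in wild-type fetal liver and 46.5, 38.5 and 46 CPM in bone marrow. Hmga2, a chromatin protein of fetal stem cells and a classic let-7 target, was at 19.6, 23.6 and 24.7 CPM against 536, 520.1 and 542 CPM. This was 23.5-fold lower (log2 difference -4.56 ± 0.18, adjusted p = 3.46e-11, edgeR), and the level in bone marrow was 31.9 ± 3.46 CPM (SD, n = 3). Igf2bp2, which binds and stabilises messages, was at 14.3, 16.6 and 18.9 CPM against 229, 225 and 254 CPM, 14.2-fold lower (adjusted p = 1.38e-09). The related Igf2bp3 was at 121, 119 and 110.3 CPM against 282, 273 and 287 CPM, 2.4-fold lower (adjusted p = 2.09e-05). Igf2bp1 was at 71.7, 83.6 and 84.3 CPM against 218, 184 and 218 CPM (adjusted p = 0.00287, and 0.0998 with DESeq2). In bone marrow Igf2bp1 and Igf2bp3 were at 0.469 ± 0.328 and 3.96 ± 0.249 CPM, so the labelled knockout kept levels between the wild-type tissues for these 2 genes. Lin28a, the paralogue of Lin28b, was at 4.84, 1.7 and 1.32 CPM against 0.136, 0.861 and 0 CPM. It was called higher (adjusted p = 0.0381), but not without labelled knockout library 3 (0.163), wild-type library 1 (0.126) or wild-type library 5 (0.101), from 147 and 19 counts.

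**Figure D4:**
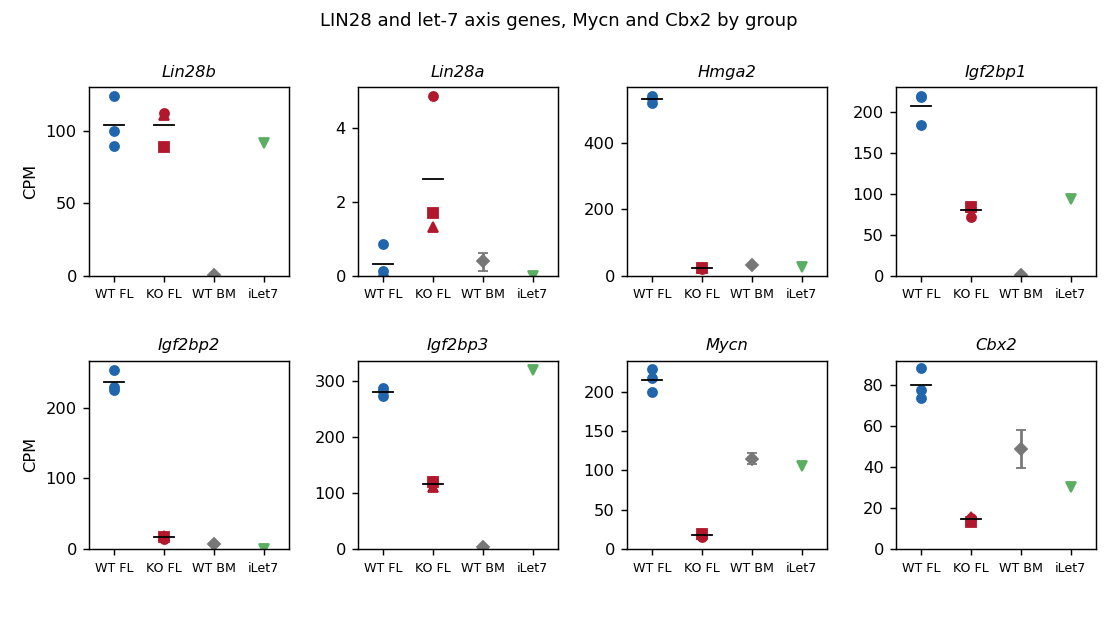
CPM (vertical axis) of the 6 axis genes, Mycn and Cbx2 in wild-type fetal liver (WT FL, blue), the labelled Lin28b knockout (KO FL, red, 1 symbol per library), wild-type bone marrow (WT BM, grey, mean with bars from the lowest to the highest of 3 libraries) and the single inducible let-7 fetal liver library (iLet7, green). Black lines are group means. Lin28b overlaps between the fetal liver groups, Hmga2, Igf2bp2, Mycn and Cbx2 are low in the labelled knockout, and Igf2bp1 and Igf2bp3 lie between wild-type fetal liver and bone marrow.

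The seed that pairs let-7 with these messages is shown because the counts of matches below rest on it. Mature let-7 microRNAs (RefSeq, GRCm38.p6) read as follows, 5′ to 3′, with the seed (bases 2 to 8) in capitals.
let-7b-5p: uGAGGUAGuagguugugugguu
let-7c-5p: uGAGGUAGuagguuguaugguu
let-7g-5p: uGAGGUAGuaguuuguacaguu
let-7j: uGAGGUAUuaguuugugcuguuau
The seed GAGGUAG is shared by 10 of 11 let-7 family entries, and let-7j carries GAGGUAU. Its 7-base match in a message is CTACCTC. In the longest annotated 3′ UTRs (GENCODE vM21, GRCm38), Hmga2, Lin28b and Igf2bp1 hold 4 such matches each, Lin28a holds 2, and Igf2bp2, Igf2bp3, Cbx2 and Irs2 hold 1 each. The first match of each, on the minus strand except Cbx2, is printed with its neighbouring bases and the match in capitals. The capitals lie at chr10:120364225-120364231 in Hmga2, chr10:45381023-45381029 in Lin28b, chr11:95961779-95961785 in Igf2bp1, chr4:134005190-134005196 in Lin28a, chr16:22059474-22059480 in Igf2bp2, chr6:49086788-49086794 in Igf2bp3, chr11:119029288-119029294 in Cbx2 and chr8:10986529-10986535 in Irs2.
Hmga2: gacattcaatttCTACCTCagcatc
Lin28b: cgggcgggaagtCTACCTCatgcaa
Igf2bp1: gtgcgaagtaaaCTACCTCaaggtg
Lin28a: cagcctgttgaaCTACCTCattttt
Igf2bp2: cacaaataaaagCTACCTCaggtgt
Igf2bp3: atttttactcaaCTACCTCaggtat
Cbx2: ttcctgctgattCTACCTCtctggg
Irs2: actaccacagtcCTACCTCagttca
Genes with the same 4 matches thus went different ways: Hmga2 and Igf2bp1 fell, and Lin28b was not called. Irs2, an insulin receptor adaptor with 1 match, was at 85.1, 87 and 105 CPM against 3.22, 1.99 and 0.688 CPM (log2 difference 5.52 ± 0.84, adjusted p = 6.71e-05, edgeR), opposite to Hmga2.

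Of 39 tested genes on a list of let-7 targets, 19 fell and 8 rose, with a median difference of -0.37. Falls included Mycn, a driver of progenitor growth, at 15.4, 19.5 and 18.7 CPM against 229, 199 and 217 CPM (log2 difference -3.59 ± 0.36, adjusted p = 8.01e-07, edgeR), and Zfp711 at 3.47, 2.64 and 8.02 CPM against 65, 65.1 and 92.3 CPM. Cdc34 and Cdc25a, cell cycle genes on the same list, were within 1.04-fold and not called. Taken over all 12293 tested genes with a 3′ UTR, the medians by number of matches were -0.003 for 11105 genes with no match, -0.05 for 1041 with 1, -0.11 for 125 with 2 and -0.63 for 22 with 3 or more. Of those 22, 10 fell (45.5%) and 4 rose, against 24.3% that fell among genes with no match. The 22 genes also had a higher level, with a median of 50.6 CPM against 14.8 CPM. Among genes with at least 10 CPM in wild type the shares that fell were 57.1% (8 of 14) and 38.6%, and the medians for no match and 1 match were -0.17 and -0.16. The genes with more matches also had longer 3′ UTRs, with a median of 917 bases for none and 4449 for 3 or more, and their part in this order was not tested. Within 3′ UTRs of 3000 to 20000 bases the median of 13 genes with 3 or more matches was -0.04. For UTRs of 1500 to 3000 bases it was -1.21 over 6 genes. Of the genes with 3 or more matches, D10Wsu102e (122583 bases, -0.74) and Macir (39397 bases, 2.26) lay above these ranges. With an 8-base match (CTACCTCA) the medians were -0.006 for no match and -0.13 for 398 genes with 1. They were 0.66 for 14 genes with 2 matches and -1.39 for 4 with 3 or more, so the order did not hold for that definition. With the 7-base match in the shortest annotated 3′ UTRs the medians were -0.011, -0.036, -0.23 and -0.74, the last over 11 genes.

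Genes that process microRNAs moved in both directions. Of 18 tested, 3 rose and 6 fell, the latter only 3 without labelled knockout library 6 or 8 or wild-type library 4. With only the 6 fetal liver libraries fitted, 6 rose. Ago2, the slicing Argonaute, was at 226, 224 and 202 CPM against 52.2, 50.9 and 49.4 CPM (log2 difference 2.1 ± 0.13, adjusted p = 4.47e-09, edgeR), and its paralogue Ago1 at 23.7, 21.5 and 18.4 CPM against 39.8, 29 and 26.8 CPM (adjusted p = 0.0406). The call of Ago1 was lost without labelled knockout library 6 or 8 or wild-type library 1 or 4, with adjusted p from 0.0560 to 0.201. It was also lost with DESeq2 (0.0562), with DESeq2 size factors (0.0735), with no filter on low counts (0.0533), with only genes of 1 transcript (0.0506) and with scaling without the erythroid and hepatocyte lists (0.0685). The uridyl transferases that act with LIN28 on let-7 precursors went opposite ways, with Tut7 3.02-fold higher and Tut4 1.68-fold lower. Khsrp, which promotes let-7 maturation, was 1.21-fold higher (adjusted p = 0.00444).

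Imprinted growth genes had 8 of 15 tested members higher and 2 lower. Plagl1, a regulator of the imprinted network, was at 9.997, 19.8 and 17.5 CPM against 0.409, 0.485 and 0.229 CPM (log2 difference 5.37 ± 0.65, adjusted p = 1.10e-05, edgeR), and Igf2r, Peg3 and Zrsr1 rose 2.7-, 4.2- and 7.16-fold. Ndn, a growth suppressor of stem cells, fell by 2.54 and Impact fell by 0.55 on the log2 scale. Of these 2 calls, 1 was lost without labelled knockout library 3 or 6 or wild-type library 1 or 4, and with DESeq2 size factors. Among Polycomb genes, 5 of 21 rose and 8 fell. The falls included Cbx2, at 15.1, 13.3 and 15.8 CPM against 88.2, 73.6 and 77.8 CPM (log2 difference -2.44 ± 0.22, adjusted p = 2.29e-07), and the ubiquitin ligase subunits Bmi1 and Rnf2, 2.47- and 2.73-fold lower. Ezh1, Ring1, Cbx7, Pcgf1 and Pcgf3 were the rises, and Rbbp4 was not called.

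The label of the sort was checked against its own antigens. A CMP gate relies on Kit, Cd34 and intermediate Fc gamma receptors, in the absence of Sca-1 (Ly6a) and of lineage antigens. Kit (2 transcripts) and Ly6a (6 transcripts) had 0 counts in all 17 libraries, which this counting cannot tell from reads set aside. Cd34 was at 0.684, 0.763 and 1.62 CPM against 4.77, 5.55 and 6.59 CPM (log2 difference -2.45 ± 0.33, adjusted p = 2.39e-05, edgeR), also with 2 transcripts. Of 13 tested genes linked to the gate, 7 were lower and 2 higher in the labelled knockout, and the summed level was 353, 252 and 285 CPM against 890.1, 906 and 926 CPM. Over genes of 1 transcript, 4 of 8 were lower. Flt3, the receptor of early lymphoid and myeloid progenitors, was at 48.6, 28.7 and 36.1 CPM against 417, 401 and 381 CPM (log2 difference -3.4 ± 0.19, adjusted p = 1.83e-09). Cd48, found on most committed progenitors, was at 46.5, 37.7 and 43.9 CPM against 239, 263 and 301 CPM (6.27-fold lower). The receptor chain Il3ra fell 2.22-fold, while Fcgr3 and Cd38 rose 3.59- and 7.66-fold.

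Of 8 tested lineage antigens, 2 rose and 1 fell. Ly6c2, of the Gr-1 antigens, was at 186, 78.5 and 73.2 CPM against 1.5, 2.64 and 1.2 CPM (63.2-fold, adjusted p = 9.72e-07, edgeR). Cd4 went the other way, at 1.42, 1.11 and 0.457 CPM against 15.3, 10.4 and 14.4 CPM. Cd3e, Cd5, Cd8b1 and Cd79a were not called, and Itgam, Cd8a and Klrb1c, with 2 transcripts each, had 0 counts.

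Genes of stem cells and multipotent progenitors were mostly lower. Of 23 tested, 14 fell and 2 rose, with a median difference of -2.27, and the sum was 163, 174 and 184 CPM against 1111, 1077 and 1092 CPM. The bone marrow libraries, at 1173, 1224 and 1146 CPM, were near the wild-type fetal liver. Hlf, a stem cell factor, was at 11, 9.27 and 7.86 CPM against 71.6, 68.2 and 73.4 CPM (log2 difference -2.92 ± 0.18, adjusted p = 3.26e-09, edgeR). Fgd5, a marker of stem cells and endothelium, was at 6.52, 7.92 and 6.9 CPM against 65.2, 63.3 and 72.7 CPM (adjusted p = 0.0011). Mecom, a stem cell regulator, and Hoxa7 fell by 2.1 and 3.63 on the log2 scale, while Slamf1, Esam and Robo4 were not called. The rises were Lmo2, a partner of TAL1, and Mllt3, close to the threshold (adjusted p = 0.04996, edgeR). Of these 2, 1 was lost when any single library was left out, and with no filter on low counts. Over genes of 1 transcript, 8 of 13 fell.

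Of 18 Hox genes and partners, 8 fell and none rose. Hoxa7 was at 1.32, 2.11 and 1.32 CPM against 19.7, 20.2 and 18.9 CPM (log2 difference -3.63 ± 0.20, adjusted p = 9.27e-10, edgeR), and Hoxa5 at 0.368, 2.05 and 0.406 CPM against 5.81, 4.74 and 3.61 CPM. Pbx2, a Hox cofactor, fell 2.12-fold, and without labelled knockout library 3 a member was called higher. Lymphoid genes had 9 of 24 lower and none higher, and 3 of 18 were higher with only the 6 fetal liver libraries fitted. Rag2, of the recombinase, was at 3.84, 4.46 and 5.38 CPM against 42.7, 38.5 and 37 CPM (log2 difference -3.11 ± 0.34, adjusted p = 2.31e-06), and the interleukin 7 receptor Il7r at 6.21, 4.99 and 5.63 CPM against 37.1, 24.9 and 22.8 CPM (5.03-fold lower). Tcf7, a T cell factor, fell 4.23-fold. In bone marrow these 3 were at 7.24 ± 1.89, 1.63 ± 1.07 and 2.42 ± 1.2 CPM. In the Notch pathway 7 of 24 fell and 3 rose, with the ligand Jag2 at 0.526, 1.99 and 1.01 CPM against 20.1, 18.8 and 25 CPM (log2 difference -4.18 ± 0.45, adjusted p = 1.92e-06) and the receptor Notch1 4.35-fold lower, while Notch2 was not called and the protease gene Adam10 was 2.06-fold higher.

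Most late neutrophil and primary granule genes rose. Of 27 tested late neutrophil genes 25 rose and 1 fell, with a median of 6.12. The fall, Cxcr2 (-0.50), was lost without labelled knockout library 3 or 6 or wild-type library 4 or 5. It was also lost with DESeq2, with DESeq2 size factors, with no filter on low counts and with only genes of 1 transcript. Scaling without the erythroid and hepatocyte lists lost it too. S100a8, an alarmin of neutrophils, was at 1102, 550.4 and 532 CPM against 9.3, 2.69 and 2.46 CPM (log2 difference 7.19 ± 0.77, adjusted p = 1.89e-06, edgeR). Lcn2, a secondary granule protein, was at 247, 114 and 119.5 CPM against 1.36, 0.269 and 0.115 CPM (254-fold), and Mmp9 at 31.2, 12.3 and 21 CPM against 0.0454, 0.269 and 0.0573 CPM. Library 3 was highest in each. In bone marrow CMPs S100a8 and Lcn2 were at 129 ± 71.5 and 39.5 ± 23.3 CPM. Of 16 primary granule genes, made in promyelocytes, 10 rose and 1 fell. Elane was at 889, 427 and 382 CPM against 11.1, 20.2 and 22.2 CPM (31.9-fold higher, adjusted p = 5.75e-06), but Mpo was at 5571, 3167 and 3399 CPM against 4806, 6296 and 5221 CPM and was not called (adjusted p = 0.0634), and Prtn3 overlapped too. Without library 3, Mpo and Serpinb1a were called lower (-0.73 and -0.92 on the log2 scale), so that 3 of the list fell. Both were also called lower with no filter on low counts. The sums of this list overlapped between groups, at 9379.8, 5368 and 5537 CPM against 6446, 8231 and 7112 CPM.

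Monocyte and dendritic genes had 7 of 21 higher and 1 lower, and 11 of 19 higher with only the 6 fetal liver libraries fitted. The rises included Ly6c2, given above, and Zbtb46, a factor of classical dendritic cells, 9.5-fold higher. Emb fell 3.01-fold. Csf1r, the receptor that defines the monocyte line, was at 184, 130.04 and 148 CPM against 135, 156 and 132 CPM and was not called. Megakaryocyte genes had 13 of 18 higher and 3 lower. Pf4, a platelet chemokine, was at 192, 259 and 360.2 CPM against 4.68, 2.96 and 5.33 CPM (log2 difference 5.96 ± 0.40, adjusted p = 9.18e-09, edgeR), Ppbp was at 147, 192 and 279.7 CPM against 0.363, 0.215 and 0.0573 CPM, and Tubb1, the platelet tubulin, rose 40.02-fold. Fli1, a factor of the megakaryocyte fate, had a log2 difference of -1.46, Nbeal2 -1.34 and Plek -0.62. Among mast cell, basophil and eosinophil genes 12 of 19 rose and 3 fell. Prg2, the eosinophil major basic protein, was at 164, 121 and 162 CPM against 5.4, 0.162 and 0.229 CPM (log2 difference 6.2 ± 1.55, adjusted p = 0.00416), where wild-type library 1 stood above the other wild-type libraries. Cpa3, a protease of mast cells and basophil progenitors, had a log2 difference of -1.56, Slc18a2 -0.76 and Srgn -0.72. Hdc was not called.

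Markers of cells outside the blood progenitor gate were present in the labelled knockout libraries. Of 26 tested hepatocyte genes 21 rose and 2 fell, with a median of 6.99 (6.53 with genes at 0 in a group set to their bound). Their summed level was 543, 1016 and 1719 CPM against 160.5, 166 and 165 CPM. Alb, serum albumin, was at 110.5, 219 and 435 CPM against 0.454, 0.70 and 0.344 CPM (log2 difference 8.98 ± 0.63, adjusted p = 1.77e-08, edgeR), and Apoa1, an apolipoprotein, at 29.6, 71.2 and 127 CPM against 0.409, 0.592 and 0.229 CPM. Both increased in the order of libraries 3, 6 and 8. Transthyretin, Ttr, was at 10.8, 20.002 and 43.2 CPM against 0.0454, 0.162 and 0 CPM, and Ambp had 995 counts against 2 (ratio 518, 95% counting interval 143 to 4282). The 2 falls were Hnf4a (-1.7) and Krt18 (-1.17), and Prox1 and Cps1 were not called. In bone marrow the hepatocyte sum was 418, 453 and 414 CPM.

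Genes of the macrophages around which erythroblasts mature had 21 of 25 higher and 1 lower, with a median of 5.34 (5.1 with genes at 0 in a group set to their bound). Vcam1, the adhesion molecule that holds erythroblasts, had 3849 counts in the labelled knockout and 3 in wild type, a ratio of 1336 (95% counting interval 457 to 6479). The complement chains C1qb and C1qc were at 45.2, 55.8 and 61.1 and 35.5, 45.8 and 40.8 CPM against 0.0454, 0.431 and 0.115 and 0.272, 0.0538 and 0.459 CPM. Cd5l, of tissue macrophages, was at 64.1, 60.7 and 70.8 CPM against 0.454, 0 and 0.573 CPM (log2 difference 7.54 ± 0.73, adjusted p = 1.09e-06, edgeR). Apoe, which many cells make, fell by 1.36 on the log2 scale, from 751 ± 11.8 to 292 ± 45.8 CPM (SD, n = 3). Stroma and endothelium had 11 of 16 higher and 2 lower (Tie1, -1.75, and Egfl7, -2.18). Of these 2 falls, 1 was left without labelled knockout library 3 or 8 or wild-type library 1 or 5. The same held with no filter on low counts, with the stricter filter and with only genes of 1 transcript. The sums of the stroma and endothelium list overlapped, at 72.8, 202 and 163 CPM against 54.7, 63.1 and 75.5 CPM. Col3a1, a fibroblast collagen, was at 3.79, 35.3 and 28 CPM against 0.726, 0.485 and 0.229 CPM, and Lyve1, of sinusoidal endothelium, at 4.0, 10.9 and 15.2 CPM against 0, 0.215 and 0 CPM. The part of these other cell types in the differences of the red cell, neutrophil and progenitor genes was not tested.

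Most G2/M genes were higher. Of 26 G1/S and replication genes, 15 were not called, where 43.8% of all tested genes were called. Of 24 tested G2/M genes 22 rose and none fell, with a median of 1.13 and sums of 14904, 13303 and 13687 CPM against 4424, 5081 and 4926 CPM. Mki67, the proliferation marker, was at 5266, 4598 and 4826 CPM against 690.3, 679.7 and 676 CPM (log2 difference 2.84 ± 0.09, adjusted p = 4.31e-12, edgeR). Ube2c, of the anaphase-promoting complex, was at 1325, 1133 and 1222 CPM against 129.7, 169 and 161 CPM (8.0-fold), and the kinase Plk1 rose 3.0-fold. Of 26 G1/S and replication genes, 8 rose and 3 fell. Ccne1, a G1/S cyclin, rose 3.86-fold and Rrm2, of ribonucleotide reductase, 3.61-fold, while Mcm2, Mcm3 and Mcm4, of the replicative helicase, were not called and Mcm6, Pold1 and Gins2 fell by 0.24, 0.36 and 0.42 on the log2 scale. Mcm2 was called higher with DESeq2, with its size factors, with only the 6 fetal liver libraries and with either other filter on low counts. The same held with only genes of 1 transcript and with scaling without the erythroid and hepatocyte lists. Inhibitors of the cycle rose in the labelled knockout libraries. Cdkn1b was at 49, 45.1 and 45.5 CPM against 5.4, 6.03 and 5.73 CPM (log2 difference 3.02 ± 0.24, adjusted p = 6.88e-08), Cdkn2c rose 67-fold, Rb1 10.2-fold and Btg2 13.8-fold. Of that list of 17, 12 rose and 4 fell, the falls being Ccnd1 (-1.38), Ccnd2 (-1.1), Cdk6 (-0.92) and Cdk4 (-0.57). Ccnd1 and Ccnd2 are D cyclins and Cdk4 and Cdk6 their kinases, and the remaining D cyclin Ccnd3, with a mean under 1 CPM in both groups and 3 transcripts, was called higher (adjusted p = 0.0252).

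Ribosome biogenesis was lower by small amounts in most members. Of 37 tested 25 fell and 1 rose (Bysl), with a median of -0.39. Mybbp1a, of the nucleolus, was at 617, 655 and 641 CPM against 923, 988 and 905 CPM (log2 difference -0.56 ± 0.06, adjusted p = 4.14e-06, edgeR), and Npm3 fell 2.53-fold, while Ncl and Ddx21 were not called. Cytosolic ribosomal proteins stayed mostly uncalled, with 62 of 72, and 2 rose and 8 fell. The 8 falls became 2 or 3 without any one of labelled knockout libraries 3, 6 and 8 or wild-type libraries 4 and 5, 2 with DESeq2 size factors, and 19 when only the 6 fetal liver libraries were fitted, where 9 rose. Rps2 was at 5334, 5508 and 5066 CPM against 3549.6, 3757 and 3783 CPM (1.43-fold higher, adjusted p = 9.13e-06).

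Energy genes were mixed. Oxidative phosphorylation had 31 of 74 higher and 13 lower. No called rise reached 2-fold, as for Ndufb7 (1.52-fold higher), nor did most falls, as for Ndufa4 (1.56-fold lower). The 2 falls past 2-fold were Cox4i2 (-3.49) and Cox6a2 (-2.38), isoforms of cytochrome c oxidase subunits at under 10 CPM in every library of both groups, named after their values were seen. With no filter on low counts 8 members were called lower. In glycolysis 7 of 22 rose and 5 fell. The glucose transporter Slc2a4 was at 83.1, 70.6 and 70.2 CPM against 0.499, 0.538 and 0 CPM (log2 difference 7.68 ± 0.87, adjusted p = 3.40e-06, edgeR) and the lactate carrier Slc16a1 rose 2.65-fold. The falls were Hk2, Pgam1, Pkm, Pgk1 and Gpi1, from -0.93 for Hk2 to -0.35 for Gpi1. Cholesterol synthesis had 4 of 22 higher and 3 lower (1 without wild-type library 4), with Fdft1 2.46-fold higher and Cyp51 1.98-fold lower.

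Antigen presentation by MHC class I had 11 of 19 lower and 3 higher. Psmb8, of the immunoproteasome, was at 71.1, 44.6 and 50.7 CPM against 263, 277 and 304 CPM (log2 difference -2.34 ± 0.13, adjusted p = 1.72e-09, edgeR), and the peptide trimmer Erap1 fell 2.5-fold, while H2-D1 was not called. H2-Q10, a liver class I gene, had 621 counts against 0, at least 215-fold higher. Interferon response genes split into 7 higher and 8 lower of 36, with Rsad2 at 41.7, 15.4 and 22 CPM against 1.18, 2.48 and 2.58 CPM (12.8-fold) and Rtp4 3.02-fold lower. Heat shock genes had 3 of 20 higher and 7 lower. Hspa8, a constitutive chaperone, was at 6518, 6559 and 6533 CPM against 10519, 10079 and 10698 CPM (log2 difference -0.67 ± 0.11, adjusted p = 1.25e-04), and Hsp90aa1 was not called. Immediate early genes had 9 of 26 higher and 4 lower. Ppp1r15a, of the integrated stress response, was at 926, 772 and 819.5 CPM against 19.6, 22 and 22.5 CPM (log2 difference 5.3 ± 0.22, adjusted p = 5.80e-11), and Dusp2 fell 6.87-fold. Among apoptosis genes 5 of 17 rose and 5 fell, with Bcl2 at 8.42, 8.51 and 9.74 CPM against 38.4, 36.6 and 32.7 CPM (4.03-fold lower). Among cytokine receptors and their signalling genes 7 of 27 rose and 10 fell. The feedback genes of STAT5 signalling Cish and Pim1 rose 12.5- and 6.29-fold beside Epor, and Socs3 rose 5.41-fold.

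Among called genes with a mean of at least 10 CPM in a group, the largest differences lay mostly above 0. Apart from the globins, hepatocyte and macrophage genes, the largest rises included Slfn14, at 439, 382 and 448 CPM against 1.18, 1.18 and 0 CPM (log2 difference 9.0 ± 0.73, adjusted p = 8.70e-08, edgeR), Dusp8 at 61.2, 61.2 and 55.8 CPM against 0.0908, 0.162 and 0 CPM and Fn3k, a kinase that repairs glycated hemoglobin and other proteins, at 92.3, 84.8 and 80.9 CPM against 0.227, 0.108 and 0 CPM. Mmel1 had 1043 counts against 1 (ratio 1086, 95% counting interval 194 to 42924). Among falls with such a mean were Hmga2, Jag2, Zfp711 and Shisa8, the last at 2.79, 3.05 and 1.52 CPM against 43.3, 37.4 and 45.9 CPM. Adgrl4, an adhesion receptor, was at 42.4, 27.2 and 36.7 CPM against 375, 442 and 452 CPM (log2 difference -3.58 ± 0.18, adjusted p = 4.91e-10), and Tespa1, of antigen receptor signalling, fell 11.3-fold. Slc4a1, Car2, Gpx1 and Tmcc2 were among the genes with most counts in the labelled knockout, where Tmcc2 was at 8569, 7222 and 8685 CPM against 44.7, 29.1 and 21.8 CPM (255-fold). Eef1a1, an elongation factor, was among the leading genes of both groups and not called, at 12767, 12705 and 11856 CPM against 14557, 15434 and 14774 CPM.

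The 3 labelled knockout libraries were close for most genes and further apart for several lists. Over 6703 genes of at least 10 CPM the highest library exceeded the lowest by a median of 1.15-fold, against 1.14-fold over 6692 genes in the wild type. The ratio was above 2-fold for 143 genes in the labelled knockout and for 30 in the wild type. It was 1.105-fold in the median for heme synthesis and 1.13-fold for the red cell membrane list. It was 2.18-fold for 4 globins, 3 of them highest in library 8, 2.18-fold for late neutrophil genes and 3.69-fold for hepatocyte genes, where all 13 were highest in library 8. For stroma and endothelium it was 3.34-fold, with 5 of 7 highest in library 6. In library 3, all 15 primary granule genes and 19 of 21 late neutrophil genes were highest. Library 8 held the highest level of 14 of 15 megakaryocyte genes. The difference between libraries 3 and 8 therefore ran in opposite directions for granulocyte and hepatocyte genes, while the summed red cell membrane level differed by less than the gap to wild type.

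**Figure D5:**
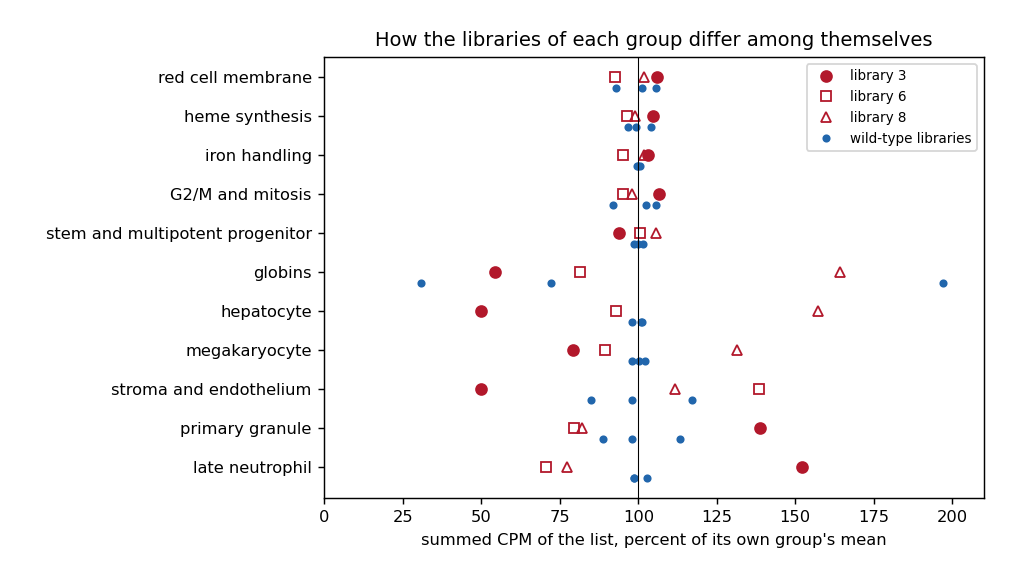
Summed CPM of 11 lists in each labelled Lin28b knockout library (red, 1 symbol per library) and each wild-type fetal liver library (blue), as a percent of the mean of its own group (horizontal axis). The 3 red libraries lie close together for red cell membrane, heme, iron, mitotic and stem cell lists, and spread for globins, hepatocyte, megakaryocyte, stroma, primary granule and late neutrophil lists.

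Sex-linked genes also separated the libraries within groups. Xist, expressed from the inactive X chromosome, was at 0.474, 0.352 and 155 CPM in the labelled knockout libraries, and Ddx3y, on the Y chromosome, at 171, 144 and 0.203 CPM. Library 8 thus carried Xist and libraries 3 and 6 the Y-linked gene. In wild type Xist was at 107, 45.8 and 6.82 CPM and Ddx3y at 0.0908, 53.7 and 93.5 CPM, so that libraries 4 and 5 held RNA of both. Neither gene was called between the groups. The part of sex in the spread between libraries was not tested.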

How the data were processed

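RNA-seq counts per RefSeq transcript were deposited by the authors for each library, as raw values with no normalization. Libraries were made with the SMARTer ultra low kit, per the labels' protocols. The tools cutadapt, HTSeq and TopHat2 and the build mm10 are listed, per the submitters' processing notes, without role or order. Rows that name no transcript were left out of library sizes. Of counted, ambiguous and no-feature reads together, ambiguous reads were 28.3% to 29.8% in the labelled knockout and 25.8% to 26.4% in wild-type fetal liver. Reads in no feature were 13.2% to 14.7% and 11.1% to 12.8%. Genes with several transcripts are therefore undercounted. The part of these unequal shares in the differences between the groups was not tested. Transcripts were summed per gene (33431 of 33818 accessions named by RefSeq GRCm38.p6, 195 by GENCODE vM21). All 17 libraries in 7 groups entered 1 edgeR 4.0.16 quasi-likelihood fit (R 4.3.3, TMM, filterByExpr, 10 residual degrees of freedom), with Benjamini-Hochberg adjustment over 13558 genes, after tests on simulated data. A floor of 3 counts equals 0.131 to 0.168 CPM. Counting intervals cover counting error only.

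Members and lists were chosen with earlier results of these data known. Named genes were all members of 8 lists, up to 5 called and 3 uncalled members of each other list, the 15 largest rises and falls with a mean of at least 10 CPM, and the 12 genes with most counts. Other members of small counts were named after their values were seen. Alternatives were DESeq2 1.42.0, its size factors, other filters, only the 6 libraries, only genes of 1 transcript, scaling without the erythroid and hepatocyte lists, and leaving out each library. Other definitions of the let-7 match groups were chosen after seeing the data.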

Additional observations from a re-analysis of the deposited data

How the results depend on the processing

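Of 5941 calls in the comparison of the labelled Lin28b knockout with wild-type fetal liver, none reversed in any alternative. Between 72 and 903 were lost among genes present in both fits. Calls of genes that an alternative left out are not among these losses. The calls kept were 5525 with the stricter filter, 5558 with only the 6 fetal liver libraries and 5254 with genes of 1 transcript. The count of calls was 5852 with DESeq2 size factors, 6003 with DESeq2, 5665 with no filter, 5731 with the stricter filter, 6669 with only the 6 fetal liver libraries, 5360 with genes of 1 transcript, 5862 with scaling without the erythroid and hepatocyte lists, and 5084 to 5421 when a library was left out. Calls of at least 2-fold numbered 2751 to 3261 over these settings. The share of calls that were rises was 47.5%, and 52.7% with DESeq2 size factors. Of 376 named genes tested, 319 kept their direction and their side of the threshold in every setting in which they were tested. With only the 6 fetal liver libraries fitted, 29 of 350 named genes became called, among them Flvcr1, Slamf1, Rbbp4, Ncl and Eef1a1. No paired analysis was possible because the labelled knockout libraries (3, 6 and 8) and the wild-type libraries (1, 4 and 5) share no replicate number. Genes near 3 counts and genes with several transcripts are limited by depth and by the reads set aside.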
